A study of Homo sapiens with 18 samples.

Results

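The olfactory receptor (OR) genes of chromosome 11 were examined in MCF10A cells, a nontumorigenic breast epithelial line, for RNA–DNA hybrids and for the chromatin-bound APOBEC3B (A3B) cytosine deaminase. The members were taken by name and place alone: every protein-coding gene of chromosome 11 in the GENCODE 44 annotation of hg38 with an OR family name, which gave 178 of 19970 protein-coding genes. A DRIP–seq or ChIP–seq region was linked to a member when its midpoint lay inside the gene or within 2000 bp of its start. Names ending in P, the usual mark of a pseudogene, were carried by 6 members that the annotation lists as protein-coding (OR51C1P, OR56B2P, OR5D3P, OR5AK3P, OR8G3P and OR8G2P).

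RNA–DNA hybrids, the core of R-loops, were recovered with the S9.6 antibody (DRIP–seq) in WT and in A3B KO MCF10A cells given DMSO, or 25 ng/ml of the phorbol ester PMA for 2 h or 6 h. The A3B KO line was 1 clone made with a lentiviral CRISPR guide RNA that matches both A3B and its neighbour APOBEC3A. ChIP–seq with anti-GFP was done in MCF10A-TREx-A3B-eGFP cells without doxycycline in DMSO, and with 1 µg/ml doxycycline for 24 h in DMSO or with PMA for 2 h; no library without doxycycline received PMA. Of the 18 samples, 9 were immunoprecipitations with 1 list of regions each and 9 were their inputs. Each condition was 1 library, several S9.6 immunoprecipitations having been pooled for each DRIP–seq library, so no difference below has a replicate check and no p-value is given. Intervals are Wilson 95% intervals and cover counting error only, and neighbouring genes of a cluster are not independent.

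Olfactory receptors are G protein-coupled receptors that bind odorants. An olfactory sensory neuron expresses a single receptor gene out of the whole family, while the other copies are held in heterochromatin, as they are in most other tissues. Class I receptors (OR51, OR52, OR55 and OR56) form the older, fish-like group, and class II receptors are the larger, land vertebrate group. Most OR genes have an uninterrupted coding exon, often preceded by short untranslated exons. No RNA was measured in these files, so whether a member was transcribed in these cells is not known from them.

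The members lay in 7 clusters separated by more than 1 Mb. Cluster 1, on the short arm at chr11:4367263-7941708, held 69 genes and all 57 class I members, and 8 of its genes had a DRIP–seq region in at least 1 list. Cluster 4 (chr11:54603069-56989843) held 53 genes, of which 2 had a region, OR5AP2 and OR9G4. Regions were linked to 5 of 21 genes in cluster 5 (chr11:58023881-59713845) and to 6 of 24 in cluster 7 (chr11:123753580-124582942). Cluster 2 had 2 of 7 genes with a region, cluster 3 had 0 of 3, and OR2AT4, alone in cluster 6, had regions. The share with a region was 7 of 57 (12.3%) for class I and 17 of 121 (14.0%) for class II members.

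Sequences are shown for 3 of the loci that recurred in at least 3 DRIP–seq lists outside OR51B5, since recurrence in separate libraries is the closest these data come to a replicate. All are on the plus strand of hg38, with the longest run of at least 15 A in capitals. They lie within the stretch common to the regions of the locus, but for OR5AP2 a WT DMSO region (chr11:56643254-56643753) was left out. That region overlaps only the end of the printed stretch, and its longest run of A or T is 6 bases. The OR8D1 and OR8B3 stretches hold no such run. The locus of OR5AP2 (chr11:56643144-56643259) is upstream of the gene and that of OR8D1 (chr11:124313383-124313502) is intronic. The OR8B3 stretch (chr11:124396978-124397097) is coding sequence, and the gene runs on the minus strand.
OR5AP2: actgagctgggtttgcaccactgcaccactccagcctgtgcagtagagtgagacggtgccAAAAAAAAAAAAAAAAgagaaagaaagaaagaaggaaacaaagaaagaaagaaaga
OR8D1: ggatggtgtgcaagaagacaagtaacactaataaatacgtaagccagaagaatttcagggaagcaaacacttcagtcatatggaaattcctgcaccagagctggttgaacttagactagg
OR8B3: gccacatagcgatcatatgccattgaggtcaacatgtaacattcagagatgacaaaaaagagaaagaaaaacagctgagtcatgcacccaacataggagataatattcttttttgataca

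Few OR genes carried DRIP–seq regions in any condition. In WT cells, 7 of the 178 members had a region in DMSO (3.93%, interval 1.92 to 7.89), 9 after PMA for 2 h (5.06%, 2.68 to 9.33) and 16 after PMA for 6 h (8.99%, 5.61 to 14.1). Over all protein-coding genes the shares in these lists were 70.1%, 70.8% and 77.6%. In A3B KO cells, 4 members had a region in DMSO (2.25%, 0.877 to 5.63), 8 after PMA for 2 h (4.49%, upper bound 8.62) and 17 after PMA for 6 h (9.55%, 6.05 to 14.8). The shares of all protein-coding genes were 71.9%, 73.5% and 77.2%. The intervals of the WT and A3B KO lists overlapped at each time. With the coding span in place of the gene, the counts were 3, 5 and 8 in WT cells and 1, 4 and 9 in A3B KO cells.

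The other protein-coding genes of chromosome 11 were close to the genome as a whole, with 66.4% to 73.3% of 1139 genes carrying a region in the 6 lists. The 238 OR genes of other chromosomes stood between the 2 groups, at 11.3%, 18.1% and 22.3% in WT cells and 15.1%, 15.1% and 22.7% in A3B KO cells. The members are short genes, with a median length of 1095 bp and 99 of them under 2000 bp, so regions were also counted by length. The spans of the members held 7.77, 9.89 and 20.5 regions per Mb in WT cells and 4.24, 7.06 and 24.7 in A3B KO cells, at DMSO, 2 h and 6 h. The other protein-coding genes of chromosome 11 held 39.0, 42.9 and 61.6 per Mb in WT cells and 42.8, 50 and 63.9 in A3B KO cells. Regions were also more numerous after PMA over all of chromosome 11, from 28.5 to 50.4 per Mb in WT cells and from 31.5 to 51.0 in A3B KO cells between DMSO and 6 h. Library depth is not given by the region lists, and its part in these increases was not tested.

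**Figure D1:**
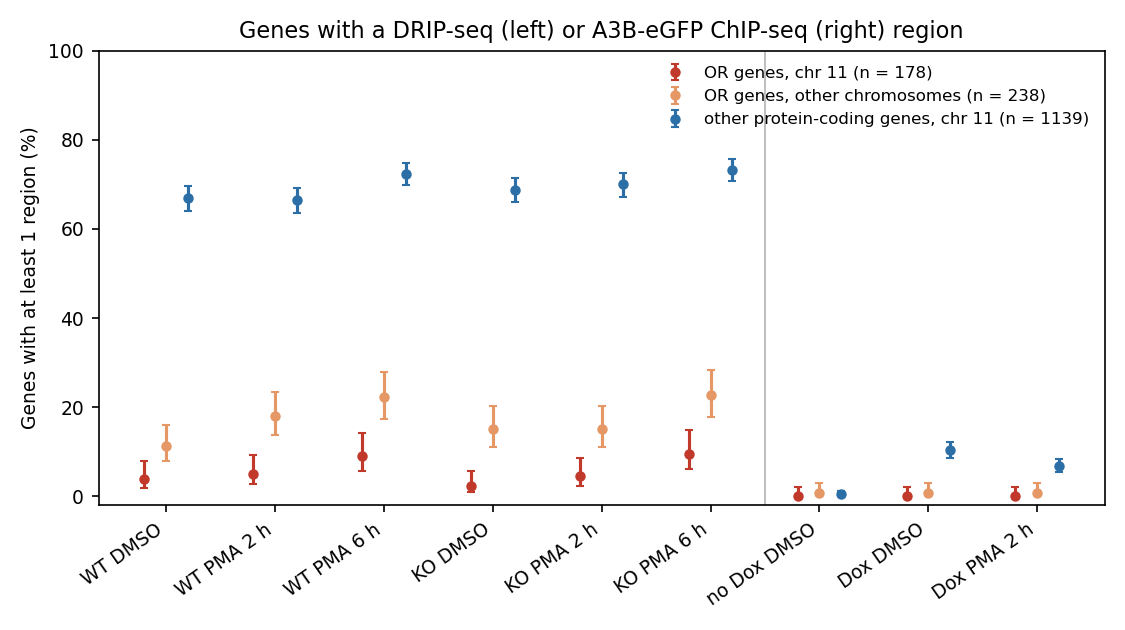
Percentage of genes (y axis) with at least 1 linked region in each of the 6 DRIP–seq lists (left of the grey line) and 3 A3B-eGFP ChIP–seq lists (right), with Wilson 95% intervals. The OR genes of chromosome 11 stay between 2.25% and 9.55% in the DRIP–seq lists, where the other protein-coding genes of the chromosome stay between 66.4% and 73.3%, and they are at 0 in the ChIP–seq lists.

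No member carried an A3B-eGFP region. The construct was not induced without doxycycline, so that list shows the anti-GFP background. All 178 were without a region in each of the 3 ChIP–seq lists, against 1.64% of all protein-coding genes called without doxycycline, 9.67% with doxycycline in DMSO and 7.81% with doxycycline and PMA. These lists are short on chromosome 11, with 33, 247 and 292 regions. By length, the other protein-coding genes of the chromosome held 0.105, 1.87 and 2.32 regions per Mb. The OR genes of other chromosomes held 2.71, 2.26 and 1.35 per Mb. The member spans cover 1.42 Mb, where such rates would give few regions, so the 0 carries little weight. The member closest to a ChIP–seq region was OR52B4 in each list, at 24873, 31615 and 18003 bp. Because the lists give only regions past the calling threshold, signal under it is not seen.

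Across the 6 DRIP–seq lists, 105 regions were linked to 24 members (13.5%), and 154 members had none. The corresponding share was 85.3% of the other protein-coding genes of chromosome 11 and 30.7% of the OR genes elsewhere. The members with a region were longer, with a median length of 5873 bp against 1064 bp for those without, and OR51B5 and OR9Q1 alone account for 33 and 10 of the 105 regions. Only OR51B5 had regions in all 6 lists (0.562% of members), against 593 of the other protein-coding genes of the chromosome (52.1%), and with a −log10 q of at least 5 no member, a count of 0, had them in all 6. OR5AP2 and OR9Q1 had regions in 5 lists and OR10V1 in 4. A further 7 members had them in 3 lists, 7 in 2 and 6 in 1.

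Most of the 105 regions lay outside the part of the gene that encodes a receptor. By their midpoints, 64 (61.0%) were in introns, 20 (19.0%) upstream of the start, 12 (11.4%) past the end, 5 (4.76%) in untranslated exons and 4 (3.81%) in coding sequence. The 4 coding regions were 3 in OR8B3 and 1 in OR4B1, and coding sequence makes up 11.9% of the member spans. Counting regions that touch coding sequence at all gave 6. In all, 51 members, with or without a region, overlap an annotated gene that is not an OR gene, so a hybrid there cannot be assigned to the receptor gene.

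OR51B5 and OR9Q1 are the 2 longest members. OR51B5, a class I receptor gene, is annotated over 202209 bp (chr11:5303444-5505652, minus strand) with a coding exon of ordinary size and long introns that contain other OR genes and gene models of the neighbouring globin locus. It had 4, 7 and 8 regions in WT cells and 2, 2 and 10 in A3B KO cells at DMSO, 2 h and 6 h, at 12 loci. All of them lay in introns, and the highest fold enrichments were 4.45, 6.92 and 9.10 in WT cells and 3.55, 3.71 and 7.52 in A3B KO cells. The strongest WT locus is also within OR51I2, a separate class I gene inside the OR51B5 span; it had a fold of 6.92 at 2 h and 9.10 at 6 h in WT cells and 6.42 at 6 h in A3B KO cells, and none in DMSO. OR9Q1, a class II gene of 157736 bp (chr11:58023881-58181616, plus strand), had 1, 1 and 2 regions in WT cells and 2, 0 and 4 in A3B KO cells at 7 intronic loci. Its strongest region, with a fold of 8.41, was the highest of any member in the WT DMSO list and recurred at 7.83 after 6 h.

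Among the short genes, OR5AP2 had the most recurrent locus. The regions upstream of its start (chr11:56642925-56643753) had a highest fold of 4.45, 7.43 and 9.10 in WT cells at DMSO, 2 h and 6 h, none in A3B KO DMSO, and 6.10 and 6.24 in A3B KO cells at 2 h and 6 h. The pileup at the summits, a count of fragments, was 17, 28 and 42 in WT cells and 22 and 33 in A3B KO cells. Fold and pileup were higher in each later WT list, while the A3B KO folds at 2 h and 6 h were close. OR10V1 had its regions past its 3′ end, next to the start of STX3, which encodes syntaxin 3, a membrane fusion protein. They were absent in both DMSO lists and had a highest fold of 4.36 and 7.62 in WT cells and 6.63 and 3.85 in A3B KO cells at 2 h and 6 h, so the order of the times was opposite in the 2 genotypes.

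Several members had regions after PMA in both genotypes and none in either DMSO list. At 2 h these were OR4D10 and OR10V1, and the OR4D10 intron had a fold of 6.81 in WT and 6.36 in A3B KO cells. At 6 h they were OR51I2, OR52E5, OR10A2, OR4X2, OR10V1 and OR8B12. The OR4X2 locus had a fold of 9.73 in WT and 7.76 in A3B KO cells at 6 h and 7.92 in WT cells at 2 h. The OR52E5 intron, which is within the span of the antiviral gene TRIM5, had 9.95 in WT and 6.24 in A3B KO cells. The values for OR10A2 were 6.98 and 6.21, and those for OR8B12 were 4.23 and 3.49. All 6 members had the higher fold in WT cells at 6 h, in 1 library of each genotype. The median fold over all regions was also higher in that WT list, 5.26 against 4.64. By pileup, the A3B KO value was the higher for OR4X2 (52 against 45) and OR10A2 (37 against 32), and the WT value for the others. Single loci of OR51B5 and OR4D9 had the same pattern, although these genes had DMSO regions elsewhere. The highest fold of any member, 10.2, was upstream of OR4D9 in WT cells at 6 h.

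Regions linked to the members were near the middle of their own lists in fold enrichment, other than in A3B KO DMSO, and lower in pileup. Their median fold was 4.40, 4.56 and 5.53 in WT cells and 3.13, 4.45 and 4.40 in A3B KO cells. These medians were at percentiles 51.9, 47.0 and 55.1 of all regions of the WT lists and 15.4, 38.3 and 44.4 of the A3B KO lists. The A3B KO DMSO value rests on 6 regions, and the median fold of that whole list was 4.31. By pileup the median percentiles were 24.2, 29.8 and 45.4 in WT cells and 13.0, 28.2 and 28.7 in A3B KO cells. The top decile of a list by fold held 5 of the 29 regions in WT cells at 6 h, 1 each in the other WT lists and 0 in the A3B KO lists.

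The 2 genotypes shared few of these regions in DMSO and more after PMA. Of the regions in WT cells, 1 of 11 (9.09%, interval 1.62 to 37.7), 5 of 14 (35.7%, 16.3 to 61.2) and 18 of 29 (62.1%, 44 to 77.3) overlapped a region of A3B KO cells at the same time. Of those in A3B KO cells, 1 of 6 (16.7%, 3.01 to 56.4), 4 of 10 (40%, 16.8 to 68.7) and 19 of 35 (54.3%, 38.2 to 69.5) overlapped a WT region. The shares over all regions of these lists were 59.4%, 63.5% and 67.9% for WT and 55.7%, 58.7% and 64.3% for A3B KO cells. The WT intervals in DMSO and at 2 h lay below the shares of their lists. The WT interval at 6 h and all 3 A3B KO intervals held the share of the list. Some regions were summits of 1 called peak, as in OR51B5 and OR10V1 in WT cells at 2 h. The intervals treat such regions as independent and can be too narrow. The 2 h bound of 61.2 is close to the list share of 63.5%, so that difference is not firm.

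Members gained and lost regions in both directions between genotypes. In A3B KO against WT cells in DMSO, 2 members gained a region (1.12%; 6.67% of all protein-coding genes), OR4D9 and OR8B3, and 5 lost theirs (2.81%; 4.92% of all), which became 0 and 4 with a −log10 q of at least 5. At 2 h, 4 gained (2.25%; 7.37% of all), OR2AT4, OR8B2, OR8B3 and OR8A1, and 5 lost (2.81%; 4.73% of all). At 6 h, 5 gained (2.81%; 4.41% of all), OR4B1, OR9G4, OR4D10, OR8B2 and OR8B3, and 4 lost (2.25%; 4.84% of all), OR51F2, OR2AT4, OR10D3 and OR8A1. Few members had a WT region to lose: 5 of 7 lost theirs in DMSO, 5 of 9 at 2 h and 4 of 16 at 6 h. Over all protein-coding genes with a WT region, 983 of 14003, 945 of 14146 and 967 of 15498 lost theirs, which are smaller shares. These rates are not on equal terms, since a gene counts as lost only when all its regions go. In WT DMSO the 7 called members held 11 regions, while the 14003 called genes held 56998. The 2 members called in both DMSO lists were the longest, OR51B5 and OR9Q1. OR8B3 was the only member that had regions in all 3 lists of one genotype and in none of the other. OR8B2 had regions in A3B KO cells alone at 2 h and 6 h, and OR2AT4 and OR8A1 were gained at 2 h and lost at 6 h. The OR8A1 regions were at different loci, from chr11:124570845 in A3B KO cells at 2 h and from chr11:124580767 in WT cells at 6 h. The latter had a fold of 2.7 and a pileup of 12, the lowest of its list.

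With PMA, more members gained than lost a region in each comparison of the full lists, as over all genes. In WT cells, 6 members gained and 4 lost a region between DMSO and 2 h (3.37% and 2.25%; 7.51% and 6.79% of all protein-coding genes), but 4 gained and 4 lost with lists of equal length. Between 2 h and 6 h, 10 gained and 3 lost (5.62% and 1.69%; 9.83% and 3.06% of all). Between DMSO and 6 h, 11 gained and 2 lost (6.18% and 1.12%; 11% and 3.56% of all), the 2 lost being OR52B2 and OR9G4. In A3B KO cells, 6 gained and 2 lost between DMSO and 2 h (3.37% and 1.12%; 7.21% and 5.6% of all), and 11 gained and 2 lost between 2 h and 6 h (6.18% and 1.12%; 7.47% and 3.77% of all). Between DMSO and 6 h, 13 gained and 0 lost (7.3% and 0%; 8.7% and 3.4% of all). The comparisons of a genotype share their lists. The member shares that gained were below those of all genes throughout, although members had more room to gain, since most protein-coding genes already had a region. Members also had fewer regions to lose, so the loss shares are not on equal terms. From DMSO to 6 h, 2 of the 7 called members lost theirs in WT cells, against 710 of 14003 called genes. In A3B KO cells 0 of 4 did, against 679 of 14352.

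A row of regions called in the A3B KO lists alone joined OR8B2 and OR8B3, neighbouring class II genes on the minus strand. Between the genes and inside them, A3B KO cells had 2 regions in DMSO (fold 2.79 to 3.2), 6 at 2 h (2.94 to 3.71) and 12 at 6 h (3.3 to 5.32), against 0, 0 and 0 in WT cells and in the ChIP–seq lists. The pileups were 10 to 13, 11 to 14 and 17 to 28 fragments. The regions extended over 4277, 12133 and 14039 bp, and the 12 at 6 h were all summits within 1 called peak. OR8B3 was linked to 1 region in each A3B KO list, in its coding sequence, with a fold of 3.2, 2.94 and 4.22. OR8B2 had 0, 1 and 4, with a highest fold of 3.71 at 2 h and 5.32 at 6 h.

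The OR8B2 and OR8B3 coding sequences are 939 bp each, are identical at 927 positions (98.7%) and start 14008 bp apart, close to the extent of the 6 h regions. Reads that match both copies cannot be assigned with certainty, and how the aligner placed them is not given in the sources used here. A run of at least 15 A or 15 T was present in 2 of these 20 regions, the longest of 18 bases. In WT cells the nearest regions were at 68934 to 547531 bp on the OR8B2 side and 124721 to 192413 bp on the OR8B3 side. Chromosome 11 had 1031 stretches between consecutive WT regions that held A3B KO regions at all 3 times, and 712 of the reverse kind. The stretch with OR8B2 and OR8B3 (chr11:124313460-124523745) held 22 regions, and the next largest of either kind held 10; this ranking was made after the OR8B3 result was seen. A change in copy number or sequence of this interval in the A3B KO clone was not tested.

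**Figure D2:**
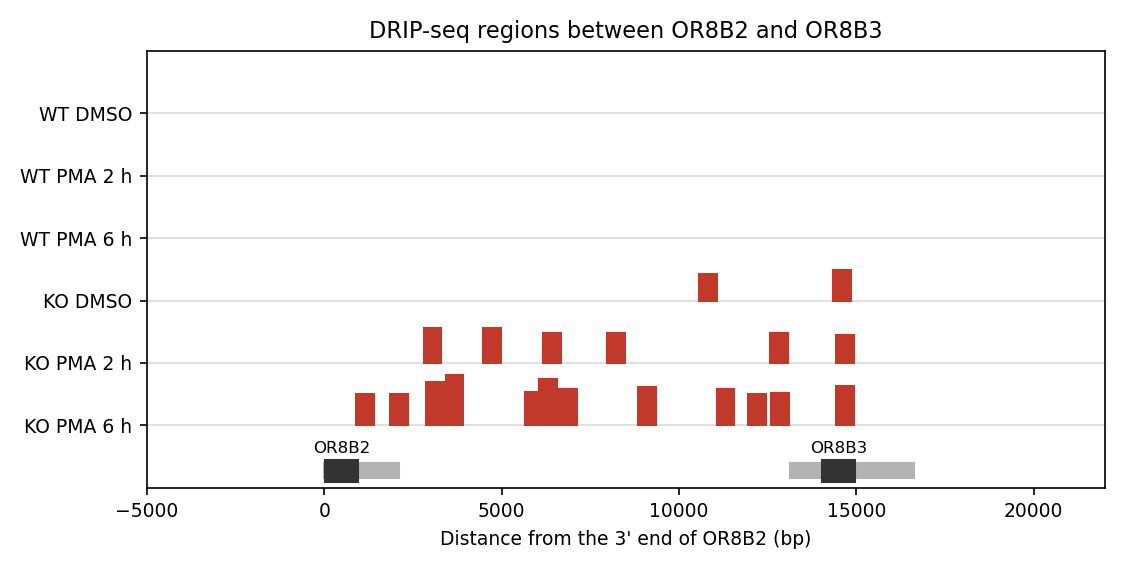
DRIP–seq regions around OR8B2 and OR8B3 in the 6 lists (rows) by distance in bp from the 3′ end of OR8B2. Each bar is a 500 bp region and its height is the fold enrichment, to 1 common scale with a highest value of 5.32; grey boxes are the genes and black boxes their coding sequence. The 3 WT rows are empty, and the A3B KO rows hold 2, 6 and 12 regions that spread from OR8B3 to OR8B2.

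The sequence under the regions had a feature that the rule did not use. Of the 105 regions, 51 contained a run of at least 15 A or 15 T, the longest being 52 bases. The threshold was chosen after the sequences were seen. By list the shares were 27.3%, 57.1% and 58.6% in WT cells (3 of 11, 8 of 14 and 17 of 29) and 33.3%, 50% and 45.7% in A3B KO cells (2 of 6, 5 of 10 and 16 of 35). All DRIP–seq regions of chromosome 11 had 49.9%, 59.3% and 62.0% in WT cells and 52.0%, 56.6% and 59.3% in A3B KO cells. By comparison, 6.1% of 269054 consecutive 500 bp tiles of the chromosome and 3.21% of 2831 tiles across the member spans held such a run. The ChIP–seq regions of chromosome 11 were at 6.06% without doxycycline, and at 4.45% and 4.45% with it. The run in the OR5AP2 sequence printed above is an example.

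**Figure D3:**
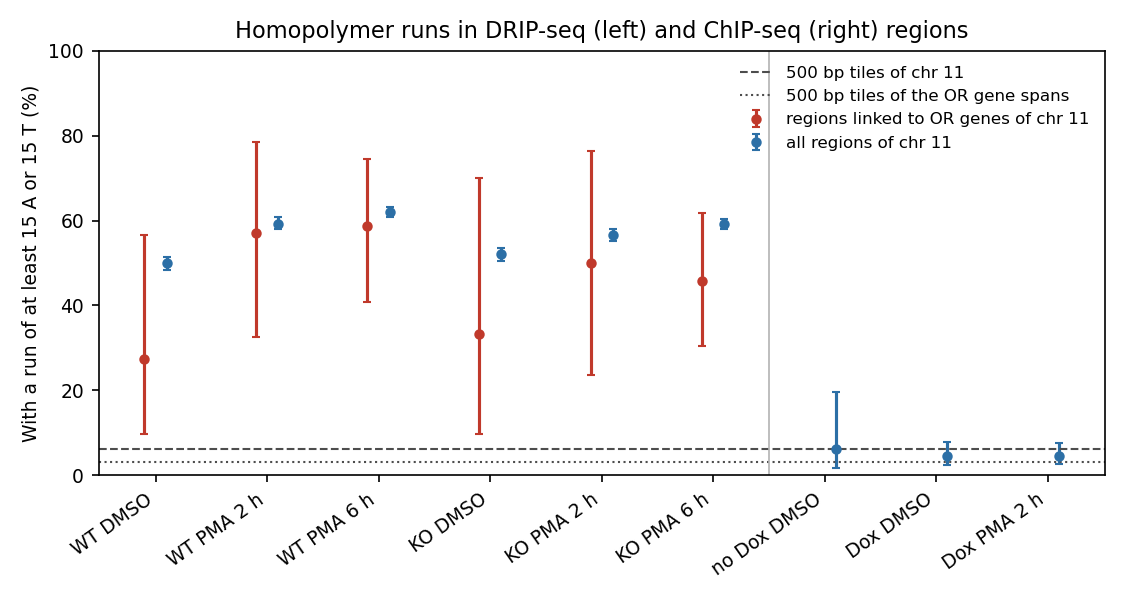
Percentage of 500 bp regions (y axis) with a run of at least 15 A or 15 T in the 6 DRIP–seq lists and 3 ChIP–seq lists, for regions linked to OR genes of chromosome 11 (red) and for all regions of the chromosome (blue), with Wilson 95% intervals. The DRIP–seq points lie between 27.3% and 62.0%, above the tiles of the chromosome at 6.1% (dashed) and of the OR gene spans at 3.21% (dotted), and the ChIP–seq points are at 4.45% to 6.06%.

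The runs were seldom at the middle of the region: the median distance from the midpoint was 153.5 bp, and 6 of 51 were within 100 bp. Regions with a run had the higher median fold in each list, 4.45 against 3.81, 5.79 against 4.06 and 6.78 against 4.23 in WT cells, and 3.69 against 3.12, 6.36 against 3.71 and 5.5 against 3.98 in A3B KO cells, with overlapping ranges. None of the 4 coding regions had a run, nor did the 8 regions linked to OR8B2 and OR8B3, against 51 of the other 97. The 3 OR8B3 regions are counted in both groups, and the share of coding sequence with such a run is not given. The run was present at 6 of 23 loci seen in 1 list, at 6 of 11 seen in 2, and at 8 of the 13 seen in 3 or more. A locus merges its overlapping regions, so loci seen in more lists hold more sequence. Those seen in 1 list were 500 bp long and those in 3 or more were 519 to 1009 bp. The counts are therefore not on equal terms.

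The most common stretch of 12 bases in the regions was CACTCCAGCCTG, counted on both strands, at 16 of 47 loci. This stretch is part of the Alu element, an abundant primate repeat that ends in an A-rich tail; repeats themselves were not annotated here. The letters were found in 9.09%, 42.9% and 34.5% of the regions linked to members in WT cells and 16.7%, 40% and 22.9% in A3B KO cells, against 31.9% to 42.1% of all regions of chromosome 11. The tiles held it at 6.88% over the chromosome and 3.64% over the member spans. The GC content of the regions had medians of 39.5% to 42.9%, against 45.0% to 46.8% for all regions of the chromosome and 37.8% for the tiles of the member spans.

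At their start sites the members were AT-rich. RefSeq promoters (GRCh38.p14, 250 bases before to 50 after the start) were matched for 133 of the 178 members, giving 136 promoters. Their median GC content was 37.0%, against 62.3% for the other protein-coding genes of chromosome 11, and the median ratio of observed to expected CpG was 0.115 against 0.744. A ratio of at least 0.6, a usual mark of a CpG island, was reached by 2 member promoters (1.47%), 61.7% of those of the other genes and 48.9% of all promoters.

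Genes of receptor signalling and choice had regions about as often as protein-coding genes as a whole, of which 70.1% to 77.6% did so in the 6 lists. Of 18 olfactory transduction genes, 12, 13 and 14 had a region in WT cells and 10, 13 and 14 in A3B KO cells at DMSO, 2 h and 6 h (55.6% to 77.8%), and 0 had an A3B-eGFP region. GNAL, the olfactory G protein subunit, ADCY3, its adenylyl cyclase, and ANO2, a calcium-gated chloride channel, had regions in all 6 lists and are long genes. The short or nose-specific genes OMP, CNGA2, CNGA4 and GNG13 had none. Of 15 genes of receptor transport and choice, 12, 10 and 12 had a region in WT cells and 12, 11 and 12 in A3B KO cells (66.7% to 80%), and 1 had an A3B-eGFP region in each list with doxycycline. These included KDM1A, a histone demethylase, and EBF1, a transcription factor, in all 6 lists, and neither RTP1 nor RTP2, the receptor chaperones. Of 37 taste, vomeronasal and trace amine receptor genes, 4, 7 and 10 had a region in WT cells and 5, 7 and 13 in A3B KO cells (10.8% to 35.1%, below the share of all genes). A ChIP–seq region was present in 2 without doxycycline, and in 4 and 3 with it, against 1.64%, 9.67% and 7.81% of all genes. The 2 called without doxycycline, TAS2R14 and TAS2R46, were also called in both lists with it.

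Markers of other cells were checked beside the same shares of all genes, 70.1% to 77.6% for DRIP–seq. All 10 basal breast epithelial markers had a region in 5 of the 6 DRIP–seq lists, and 9 in the remaining list, A3B KO PMA 6 h. A ChIP–seq region was present in 0 without doxycycline, and in 7 and 7 with it, against 1.64%, 9.67% and 7.81% of all genes. Of 10 olfactory sensory neuron markers, 3, 4 and 4 had a region in WT cells and 2, 4 and 4 in A3B KO cells (20% to 40%). ADCY3 and GNAL had regions in all 6 lists, CNGB1 in 5 and STOML3 in 4. The other markers had none, among them OMP, a gene of only 492 bp. Of 5 erythroid markers from the globin locus beside cluster 1, 2, 2 and 3 had a region in WT cells and 3, 2 and 3 in A3B KO cells (40% to 60%), and 2 of these have long gene models that overlap OR51B5.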

How the data were processed

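The MCF10A data were 9 deposited region lists, 1 for each immunoprecipitation (6 of DRIP–seq and 3 of ChIP–seq). The 9 inputs were not used on their own. The authors trimmed reads with cutadapt 1.13, aligned them to hg38 with STAR 2.6.1d and filtered them with SAMtools 1.3.1 (proper pairs), Picard (duplicates) and bedtools 2.29.2 (excluded regions). MACS2 then called peaks and their summits, each library having its own input, with a q limit of 0.01. Sources differ on its version, of which the submitters' processing notes give 2.2.6. The deposited windows are 500 bp around each summit. The deposited pileup is a signal, the fold enrichment is a ratio to input background, and the p and q values are given as −log10, all as the authors deposited them. Read depth is not given by the lists, so precision is that of counts of regions and genes.

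Midpoints were joined to GENCODE 44 genes (the study used release 31) with Python 3.11.15, pandas 2.3.3 and scipy 1.17.1, and the joins were tested on simulated data. Whether starts count from 0 or 1 is not given in the sources used here; 0 was taken. Overlap between lists was 1 bp or more. A member gained a region when it had none in the first list of a comparison and at least 1 in the second. With 1 library per condition, no test was made, and Wilson 95% intervals are given. The members and lists were chosen with earlier results of these data known. The OR genes named were those with regions in at least 5 DRIP–seq lists, the 5 highest folds of a list, those with any A3B-eGFP region, those in all lists of 1 genotype and none of the other, those with 3 or more regions in a list, and those called in both genotypes at a PMA time and in neither DMSO list. Other genes were named after their values were seen. Alternatives tried were a 1 kb limit, coding spans, members overlapping no other gene, a −log10 q of at least 5, lists of equal length, 250 bp overlap and ranks by pileup or −log10 q. Added after seeing the data were a run of 12 bases, the 2 longest members left out and starts counted from 1. The sequences of some recurrent loci are not reported here.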

Additional observations from a re-analysis of the deposited data

Results flagged for a closer look

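OR9G4, a class II receptor gene of cluster 4, moved in opposite directions with PMA at 6 h in the 2 genotypes. Its intronic region was called in WT DMSO (fold 3.71) and not in WT PMA 6 h, a change of -1 in whether a region was called. In A3B KO cells it was not called in DMSO and was called at 6 h (fold 4.4), a change of 1. The WT DMSO region had a −log10 q of 4.29. With a −log10 q of at least 5, 0 members lost a region from DMSO to 6 h in WT cells, so the WT change is not seen at that limit. Each condition is 1 library and the difference was not tested.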

How the results depend on the processing

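Of 163 values recomputed under alternatives, 121 stayed close to the main value and 42 moved. A count stayed if it was within 1.5 times its main value. A share with a run, or a median percentile, stayed if it was inside the main interval. No paired analysis was possible because each condition has 1 library, and none could be left out. Linking by the coding span gave 3, 5 and 8 members in WT and 1, 4 and 9 in A3B KO lists at DMSO, 2 h and 6 h. Leaving out members that overlap another gene gave 3, 4, 8, 2, 5 and 10. A −log10 q of at least 5 left 1 member in A3B KO DMSO and 5 at 2 h. Without the 2 longest members, A3B KO DMSO had 2. With lists cut to equal length, A3B KO cells had 5 at 2 h and 11 at 6 h. For A3B KO against WT, the stricter q gave 0 gains in DMSO and 2 at 2 h, and equal lengths gave 2 gains at 2 h and 2 at 6 h. For PMA in WT cells, the stricter q gave 2 losses from DMSO to 2 h, 1 from 2 h to 6 h and 0 from DMSO to 6 h. Equal lengths gave 6 gains and 1 loss from 2 h to 6 h and 7 gains from DMSO to 6 h. In A3B KO cells from DMSO to 2 h, the stricter q gave 1 loss and equal lengths 4; from DMSO to 6 h, equal lengths gave 8 gains and 1 loss. Regions shared with the other genotype under 250 bp overlap were 0 in WT DMSO, 3 in WT 2 h and 0 in A3B KO DMSO. Under the stricter q they were 0, 3 and 10 in WT lists, 0 in A3B KO DMSO and 12 at 6 h, and 0 members had regions in all 6 lists. With a run of 12 bases the share was 75.9% in WT and 65.7% in A3B KO cells at 6 h. The cause of these moves was not tested beyond the fewer regions or genes that each alternative keeps.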
